A study of Hydra vulgaris with 32 samples.

Results

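The hydroxyurea time course consisted of 12 RNA sequencing libraries from Hydra polyps sampled on 4 days, out of 32 libraries in the series. They were chosen by their labels alone: every library from hydroxyurea-treated animals, 3 on each of days 4, 5, 7 and 11 counted from the start of treatment. All animals were of Sf-1, a temperature-sensitive Hydra strain, and each library held polyA RNA of central body columns from which head and foot ends had been removed. The drug was applied at 10 mM for 24 h, 3 times over, with rests of 12 h in Hydra medium between applications. This schedule ends at 96 h, which by the label days is the time of the day 4 sample. Controls were untreated Sf-1 animals of the same 4 days, 13 libraries in all (3, 3, 3 and 4), and the remaining 7 libraries came from heat shock and colchicine. No animal was fed after the experiment began, so the days of starvation equal the day number in treated and control animals alike. The sample titles give days lower by 1 (3, 4, 6 and 10), and the label days are used here. The labels give no age, sex or number of animals per library, and do not say whether the replicates A, B and C were separate cultures, so p-values measure only the spread between these libraries, which may be technical.

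As background, the Hydra body wall is built of an outer and an inner epithelial layer whose cells divide throughout life. A separate population of interstitial stem cells, lodged mainly between the outer epithelial cells, cycles faster and gives rise to stinging cells (nematocytes), neurons, gland cells and germ cells. Hydroxyurea inhibits ribonucleotide reductase, the enzyme that makes the building blocks of DNA, and so acts on cells in S phase. In Hydra it has long been used to deplete interstitial cells while epithelial cells persist, and non-dividing cells that were already differentiated can outlast the drug. Steps between days show at what time after the drug RNA levels moved, which a comparison of each day with its control does not test. In bulk RNA of this kind, fewer cells of a type and less RNA per cell cannot be told apart.

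Counts were summed per locus, the authors' grouping of assembled sequences, which gave 25879 loci. None of the identifiers carried a gene name, and 0 of them matched a reference table of 28925 Hydra genes. Loci are therefore described by their number (for example loc18392), no role is given to any of them, and neither the central body column nor any cell type could be checked against markers. Library totals were 24.0 to 34.2 M (mega) counts. Levels are given as CPM, counts per M counts after TMM scaling of the totals. The floor for a locus with no reads was set at 3 counts, equal to 0.0820 CPM in the deepest and 0.137 CPM in the shallowest library after scaling, and covers counting error only. Of all loci, 15981 passed the filter on low counts, and they held 99.9% of the counts. Total counts, loci detected at equal depth, the share of the 100 most abundant loci and the effective number of loci (from Shannon entropy) were set against day over the 12 libraries, and none passed the test. Pearson r was -0.13, 0.08, -0.21 and 0.24 in that order, and Spearman rho was -0.02, 0.09, -0.17 and 0.19. In the permutation test the p-values adjusted over the 4 measures were 0.818 for r and 0.972 for rho, and without day 11 r was -0.06, 0.40, -0.08 and 0.07 (adjusted p = 0.879). The most abundant locus, loc01654, took 0.601% to 15.6% of a library and differed between replicates more than between days. On day 4 its share was 1.85% in replicate A, 15.6% in B and 5.76% in C.

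The libraries separated by day along the first principal component of log2 CPM, which held 44.1% of the variance. Day 4 libraries scored -59.0, -53.9 and -47.9 and day 5 libraries -37.6, -31.5 and -22.6. Day 7 libraries scored 36.7, 41.5 and 38.4, and day 11 libraries 41.6, 46.5 and 47.9. The widest gap thus lay between days 5 and 7, while days 7 and 11 nearly met, with the lowest day 11 library just above the highest day 7 library. Across loci, libraries of days 7 and 11 were as alike (mean r = 0.980) as replicates of 1 day (0.976 to 0.983), and so were those of days 4 and 5 (0.976), whereas days 5 and 7 correlated at 0.964 and days 4 and 11 at 0.947. Loci are not independent replicates, and these correlations are descriptions.

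**Figure D1:**
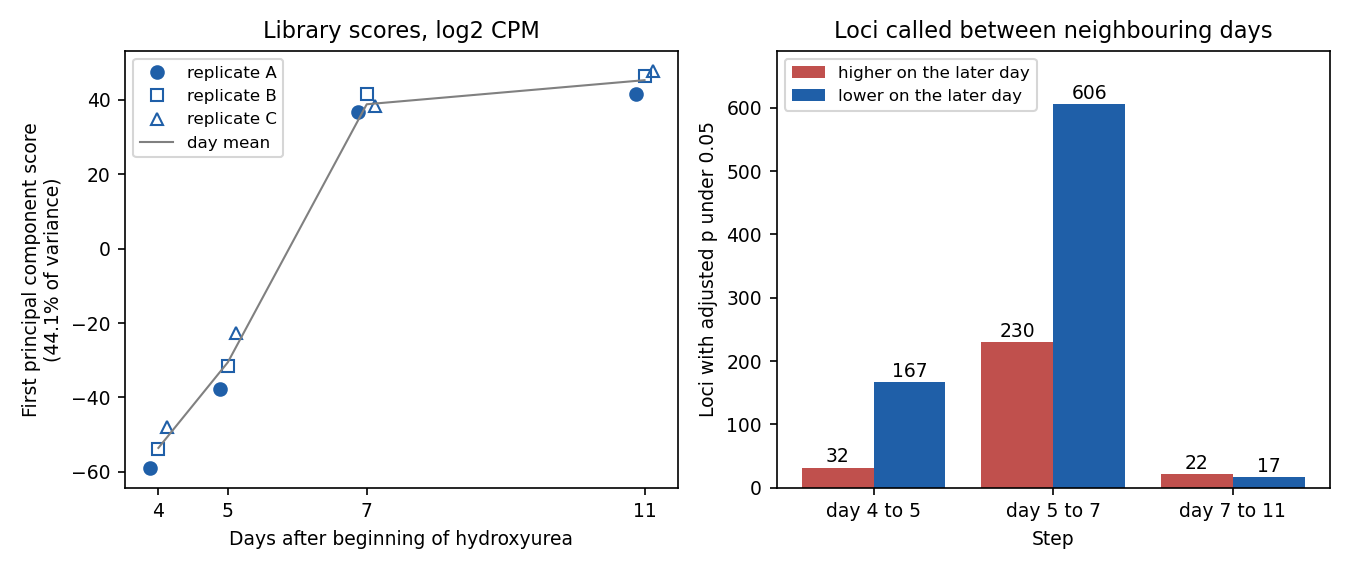
Left, score of each hydroxyurea library on the first principal component (44.1% of the variance of log2 CPM) against days after the beginning of treatment, with the mean of each day as a line. Right, bars give the number of loci called by edgeR (adjusted p under 0.05), higher or lower on the later day of each step. Scores jumped between days 5 and 7, where 606 loci fell and 230 rose, against 17 and 22 between days 7 and 11.

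Over the whole span, 2133 of 15981 loci changed with day (13.3%), of which 1405 fell and 728 rose. Calls were made at an adjusted p under 0.05 (edgeR quasi-likelihood F-test with day as a number, Benjamini-Hochberg over all loci tested). The median slope was -0.11 log2 units per day among loci that fell and 0.08 among those that rose, against 0.00 over all loci tested. Summed levels were taken over the loci called between days 4 and 11, a separate list described next. The 1403 lower ones together held 61342 to 63674.5 CPM in the day 4 libraries and 36372 to 37816.5 CPM in the day 11 libraries. The 747 higher ones went from 85949.7 to 87823.5 CPM on day 4 to 114654 to 121818 CPM on day 11. These sums describe loci chosen on the same libraries and are no test. Day 11 replicate B weighed on the count of loci with a trend, which was 1415 without it (448 rose and 967 fell). When the trend was fitted on replicates B and C alone, 1549 loci were called, and 1411 of them (91.1%) sloped the same way in the 4 replicate A libraries, which that fit had not used. Of all loci, 48.7% sloped down in replicate A. The same share was 98.8% (728 of 737) for replicate B and 94.3% (950 of 1007) for replicate C.

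Compared directly, day 11 differed from day 4 in 2150 loci (13.5%), 1403 of them lower and 747 higher. Losses were deeper than gains. Of the lower loci, 580 fell at least 2-fold, 350 at least 4-fold and 236 at least 10-fold, which is 16.8% of them. Of the higher loci, 106 rose at least 2-fold, 19 at least 4-fold and 3 at least 10-fold. The median log2 fold change was -0.80 for the lower and 0.54 for the higher loci. Without day 11 replicate B, 1411 loci were called (478 higher and 933 lower).

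The step from day 4 to day 5, which by the label days directly follows the last drug period, moved 199 loci (1.25%), 167 down and 32 up. The median log2 fold change was -1.29 among loci called lower and 0.59 among those called higher. The 167 loci already stood below controls on day 4, by a median log2 of -1.89, and on day 5 they stood at -2.85. The 32 loci were below the day 4 controls by a median of -0.32 and above the day 5 controls by 0.31. Both sets were chosen for their change between these days, so the direction of these moves against controls follows from the choice. Afterwards the 167 went on down, to a median of -3.38 against their day 4 level on day 7 and -3.64 on day 11, while the 32 stayed near their day 5 level (0.59, 0.56 and 0.50 above day 4 on days 5, 7 and 11). The call count rested on single libraries, as it was 65 without day 4 replicate A, 62 without day 4 replicate B, 63 without day 5 replicate B and 125 without day 5 replicate C, and in these fits 55 to 109 of the calls were lower and 4 to 16 higher.

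Between days 5 and 7, 836 loci changed (5.23%), 606 down and 230 up. The median log2 fold change was -0.79 for loci called lower and 0.57 for loci called higher. Relative to day 4, the 606 loci had a median log2 change of -0.22 on day 5, -1.01 on day 7 and -1.14 on day 11. Their values in single libraries were -0.14, -0.29 and -0.24 on day 5 and -0.96, -1.01 and -0.99 on day 7, a gap that follows from choosing the loci on these libraries. Against controls, 408 of them (67.3%) were below the same-day mean on day 5, 551 (90.9%) on day 7 and 514 (84.8%) on day 11. Of all loci tested, 48.2%, 49.8% and 51.8% were below it on those days. The 230 rising loci were close to controls on days 4 and 5 (median log2 of 0.02 and -0.06) and above them on days 7 and 11 (0.49 and 0.34). For the 606 and the 230 alike, the direction of the shift against controls from day 5 to 7 follows from the choice of loci. Fewer loci passed when single libraries were left out, with 444 without day 5 replicate A, 505 without day 5 replicate C, and 529, 348 and 467 without day 7 replicates A, B and C. Rises were lost more than falls in some of these fits, with 50 rising and 298 falling without day 7 replicate B and 72 and 395 without C. Without day 5 replicates A, B and C there were 102, 139 and 120 rising and 342, 500 and 385 falling loci, and without day 7 replicate A 160 and 369.

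In the last and longest step, from day 7 to day 11, 39 loci changed (0.244%), 22 up and 17 down. Their median log2 fold changes were 1.15 and -0.83. In all, 1507 loci had an unadjusted p under 0.05 in this step, against 1374 from day 4 to 5 and 3278 from day 5 to 7. The 22 loci had dipped to a median log2 of -0.41 against day 4 by day 7 and stood at 0.81 on day 11. On day 7, 20 of them were below controls, where 49.8% of all loci tested were. The 22 were chosen as lower on day 7 than on day 11. That choice favours low values on day 7, so these figures are no test. The count was 10 without day 7 replicate A (7 up and 3 down), 9 without day 7 replicate C (8 and 1) and 15 without day 11 replicate B (12 and 3), so the near-even split did not hold without them. Neighbouring steps share the libraries of days 5 or 7, and the 3 steps last 1, 2 and 4 days.

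Loci of the middle step also moved between days 4 and 11, a comparison that shares no library with it. Both come from 1 fit of all 12 libraries, which gave the filter, the scaling and the spread. Of the 606 loci lower on day 7 than on day 5, 590 (97.4%) were lower on day 11 than on day 4, where 49.6% of all loci tested were lower. Their median log2 change there was -1.14, and 478 were called. Of the 230 loci higher on day 7, 211 (91.7%) were higher on day 11 than on day 4, with a median of 0.33 and 91 called. The first and last steps also share no library, and there the shares were close to or below those of all loci. Among the 167 loci that fell from day 4 to 5, 77 (46.1%) were lower on day 11 than on day 7, against 53.2% of all loci, with a median log2 of 0.01 and 2 called. Of the 32 that rose first, 12 (37.5%, against 46.8% of all loci) were higher on day 11 than on day 7, and of the 22 that rose last, 8 (36.4%, against 47.5%) had been higher on day 5 than on day 4. Of the 17 that fell last, 9 (52.9%, against 52.4%) had been lower on day 5 than on day 4.

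**Figure D2:**
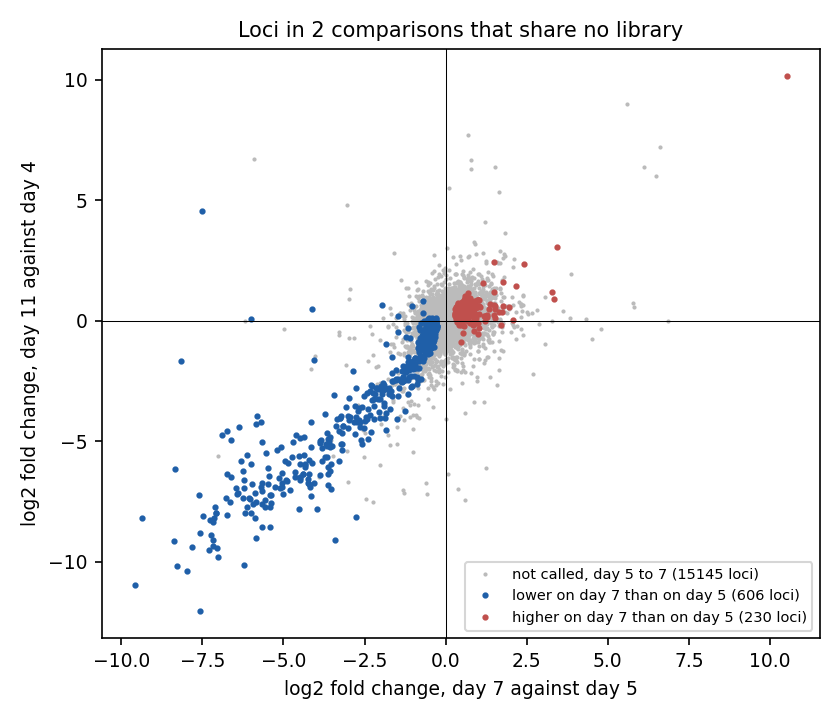
Each point is 1 of 15981 loci, with the log2 fold change of day 7 against day 5 on the horizontal axis and of day 11 against day 4 on the vertical axis. The comparisons share no library, but both come from 1 fit of all 12 libraries. Blue and red mark loci called lower (606) and higher (230) on day 7 than on day 5, of which 590 and 211 lie below and above 0 on the vertical axis.

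For the loci that differed between days 4 and 11, the levels of days 5 and 7 show how the change was spread over time. These levels did not enter the contrast that chose the loci. The libraries of both days did enter the filter, the scaling and the estimate of spread. At an even rate per day, 14.3% of a log2 change would be reached on day 5 and 42.9% on day 7. The 1403 lower loci had reached a median of 24.4% on day 5, with 17.3%, 27.3% and 30.8% in replicates A, B and C, and 79.6% on day 7, with 80.2%, 85.0% and 76.4%. The 747 higher loci had reached 28.3% on day 5 (27.9%, 29.8% and 23.9%) and 71.2% on day 7 (61.0%, 73.5% and 73.0%). Every replicate was ahead of the even rate on both days and in both directions. All replicates were set against the same day 4 and day 11 means, so they are not independent here. Choosing loci on those means draws such shares toward the middle, so the day 5 shares may be too high. By day 7 most of the change measured on day 11 was in place.

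A straight line in day was rejected for 389 loci (2.43%) by edgeR's joint F-test of the departure from it. In 272 of them (69.9%) the largest of the 3 steps was that from day 5 to 7, downward in 219 and upward in 53. The first step was largest in 57 loci that fell and 33 that rose, and the last step in 14 and 13. Of the 389, 104 kept 1 direction over all 4 days. The day 7 mean lay below those of days 5 and 11 in 181 loci. It lay above both in 49 loci, counting only those whose largest step was from day 5 to 7. These counts follow unlike rules and cannot be compared. Fewer departures were called without a day 7 library, 234 without replicate A, 172 without B and 182 without C.

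The 236 loci that were at least 10-fold lower on day 11 than on day 4 fell almost wholly before day 7. They were set apart by their day 4 and day 11 values, at a fold chosen after the values were seen. The last locus inside the limit had fallen 10.1-fold and the first outside it 9.89-fold. Their summed level was 7966, 6945 and 5836 CPM in day 4 replicates A, B and C and 3473, 3095 and 2078 CPM on day 5. On day 7 it was 220, 167 and 204 CPM and on day 11 it was 149, 143 and 122 CPM. Each day lay below the one before it with no overlap between libraries. As a ratio the fall was widest from day 5 to day 7, and in CPM from day 4 to day 5. The median locus kept 41.0% of its day 4 level on day 5, 2.12% on day 7 and 1.71% on day 11. No locus was under 10% of its day 4 level on day 5, whereas 205 were on day 7. In log2 terms 26.9% of the way to day 11 had been covered on day 5 and 97.6% on day 7, with 95.2%, 98.1% and 98.2% in replicates A, B and C. The other 1167 lower loci had covered 74.7% on day 7. These shares do not rank the sets, since many of the 236 loci were at or near 0 counts on both days 7 and 11.

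Most of these loci were well detected on day 4, which follows in part from choosing loci that fell at least 10-fold from that day. At least 1 CPM was found for 212, 208 and 193 of the 236 in the day 4 libraries, for 182, 173 and 151 on day 5, for 41, 29 and 39 on day 7 and for 34, 30 and 21 on day 11. The number at 0 counts was 0, 1 and 0 on day 4, 1 in each library of day 5, 33, 48 and 51 on day 7, and 40, 44 and 72 on day 11. Day 11 replicate C thus lacked more of them than either other day 11 library.

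Against controls of the same day, the 236 loci differed in where they stood on day 4. In 35 of them (14.8%) day 4 was over 10-fold below control, with a median of 6.63% of the control level. A further 147 (62.3%) stood 2-fold to 10-fold below control, at 20.3%. The last 54 (22.9%) were less than 2-fold below control or above it, at 76.8%. Of their own day 4 level the classes kept 38.1%, 39.6% and 46.1% on day 5 and 2.42%, 1.69% and 4.32% on day 7, and the difference between classes was not tested. On day 11 they stood at 0.111%, 0.326% and 1.96% of control. Over all 236 loci the median log2 ratio to control went from -2.19 on day 4 to -3.22, -6.76 and -7.03, while in controls the median log2 change from day 4 was -0.14 on days 5 and 11 and -0.34 on day 7.

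**Figure D3:**
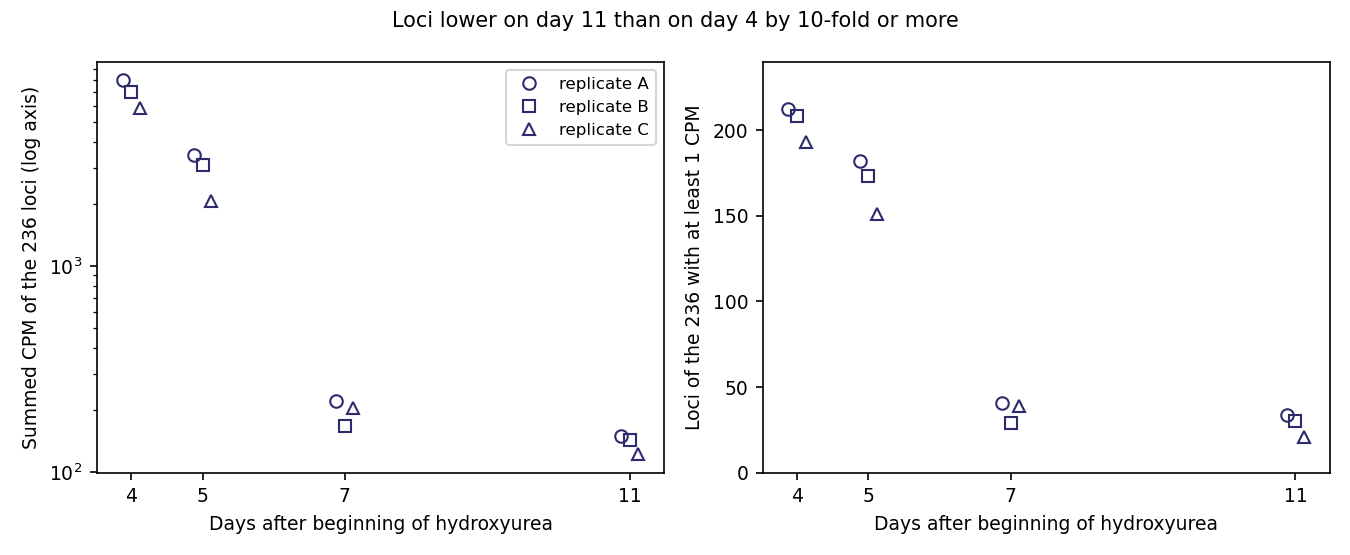
Summed level in CPM on a log axis (left) and number of loci with at least 1 CPM (right) for the 236 loci at least 10-fold lower on day 11 than on day 4, in each of the 12 hydroxyurea libraries by day. The sums fell from 5836 to 7966 CPM on day 4 to 167 to 220 CPM on day 7, and the number of loci from 193 to 212 to 29 to 41.

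Starvation lengthened along with the time after the drug, so the same trend was measured in the 13 controls. In controls 1842 of 16237 loci changed with day (11.3%), 715 up and 1127 down, a share near that of treated animals but with smaller slopes (medians of 0.06 and -0.05 log2 per day). Of the loci that fell in treated animals, 299 also fell in controls, which is 21.3% of the treated and 26.5% of the control list, and 22 rose there. Of those that rose, 125 also rose in controls (17.2% and 17.5% of the lists) and 18 fell. The shares of the treated lists, 21.3% and 17.2%, exceeded the 11.3% of all control loci called in either direction. The median control slope was -0.02 for the loci that fell under treatment and 0.02 for those that rose. The test of the difference between both slopes called 1381 of 16876 loci (8.18%), 949 with the lower slope in treated animals and 432 with the higher. Among them were 756 (53.8%) of the 1405 loci that fell and 245 (33.7%) of the 728 that rose. For the other loci the trend in treated animals was not shown to differ from that in starved controls.

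Set against same-day controls, the 1405 falling loci had a median log2 ratio of -0.19, -0.34, -0.59 and -0.69 on days 4, 5, 7 and 11, and the 728 rising loci 0.08, 0.12, 0.31 and 0.48. On day 4, 880 of the falling loci (62.6%) were below control and on day 11, 1202 (85.6%). Of the rising loci, 294 (40.4%) were below control on day 4 and 94 (12.9%) on day 11. Of all loci tested, 47.3% were below control on day 4 and 51.8% on day 11. Both sets were chosen for their slope in these hydroxyurea libraries, which fixes the direction of these ratios, and the test of the slopes called part of each set, as given above. All loci tested stayed at a median of 0.03, 0.02, 0.00 and -0.02.

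**Figure D4:**
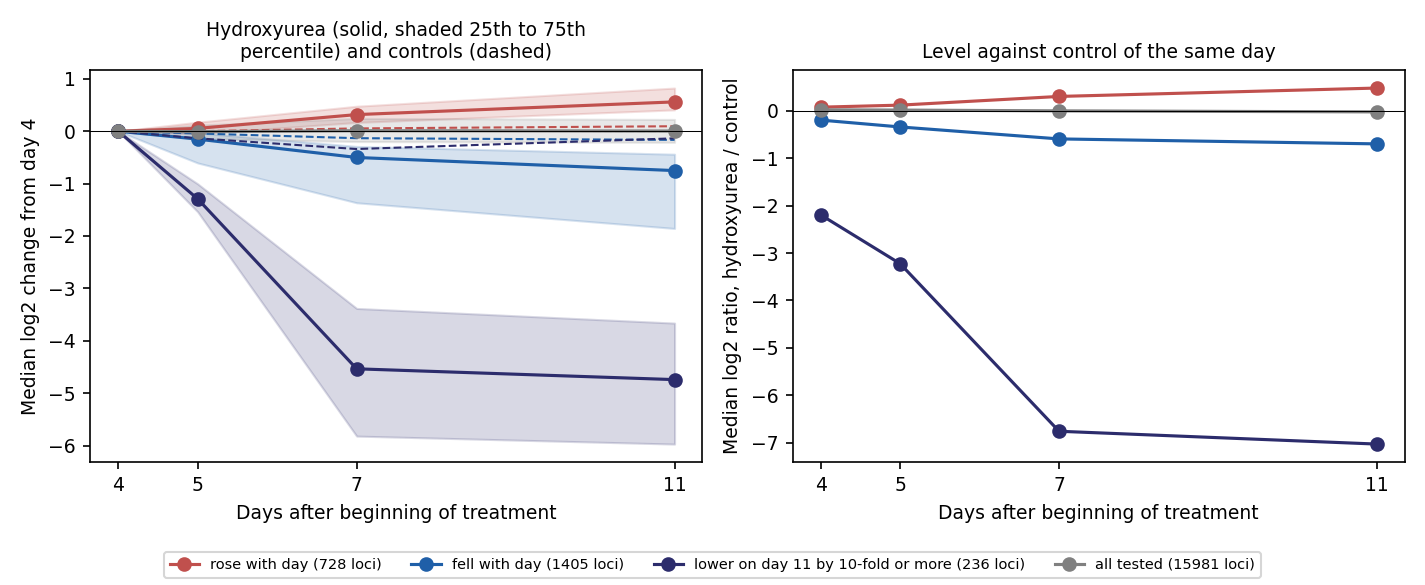
Left, median log2 change from day 4 in hydroxyurea (solid lines, shaded from the 25th to the 75th percentile of loci) and in controls (dashed) for 4 sets of loci by day. Right, median log2 ratio of hydroxyurea to control of the same day. The set of 236 loci reached -6.76 against control on day 7 and -7.03 on day 11, while the median of all loci stayed within 0.03 of 0.

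Single loci were picked by size of change, a mean of at least 5 CPM and no overlap between the libraries of the days compared. The falls with day named by this rule were those of loc18392 and loc05325, whose order by slope turned under some alternatives. The level of loc18392 was 241, 175 and 175 CPM in replicates A, B and C on day 4 and 130, 89.8 and 63.7 CPM on day 5. It then dropped to 13, 3 and 10 counts per library on day 7 and 7, 4 and 3 counts on day 11, or means of 0.289 ± 0.146 and 0.159 ± 0.045 CPM (SD, n = 3). On day 4 the libraries lay within or above the range of the 13 controls, 111 to 185 CPM, and on days 7 and 11 they were far below it. Its slope was -2.41 ± 0.28 log2 per day (SE; adjusted p = 0.000311, edgeR quasi-likelihood), and -1.52 with DESeq2. Day 4 exceeded day 7 by 659.7-fold (95% counting interval, 450.2 to 1009.9) and day 11 by 1203-fold (717 to 2201). The step from day 5 to 7 was called (log2 -8.29 ± 0.37, adjusted p = 2.01e-07), and the steps before and after were not (adjusted p = 0.0550 and 0.819).

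loc05325 followed the same course from a lower level. It held 60.9, 51.1 and 46.5 CPM on day 4 and 28.3, 22.2 and 14.4 CPM on day 5. Only 1, 2 and 4 counts were left on day 7 and 1, 2 and 0 on day 11, while controls held 55.8 to 83.3 CPM. Day 4 replicate A thus lay inside the control range and B and C under it, as did every later library. The slope was -2.38 ± 0.20 log2 per day (adjusted p = 4.05e-05), and with 3 counts in all on day 11 the ratio of day 4 to day 11 was 1504 with a wide counting interval of 515 to 7293. Both falling loci had no called trend in controls (adjusted p = 0.240 and 0.199).

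Of the loci that rose, loc22672 and loc09751 were nearly undetected in untreated animals. loc22672 had 3.65, 3.55 and 3.98 CPM on day 4, 2.95, 4.95 and 3.72 on day 5, 6.23, 9.93 and 9.57 on day 7 and 5.07, 48.5 and 26.1 on day 11. The 13 controls ranged from 0.0797 to 0.441 CPM, so every treated library was above every control from day 4 on. Day 11 replicate A lay above the day 4 libraries but below those of day 7, unlike B and C. The slope was 0.42 ± 0.07 log2 per day (adjusted p = 0.00226), and the call ended without replicate B (0.32, adjusted p = 0.0801) or C (0.43, adjusted p = 0.0648) on all days, within a range from 1.32e-06 to 0.0801 over all alternatives. loc09751 rose from 4.90, 7.02 and 10.5 CPM on day 4 through 6.39, 15.5 and 9.66 on day 5 and 12.8, 23.3 and 23.7 on day 7 to 18.7, 77.4 and 58.0 on day 11. Controls held 0.0685 to 0.607 CPM. Its slope was 0.39 ± 0.06 (adjusted p = 0.00153), with an adjusted p of 0.0510 without replicate B on all days, the highest of its alternatives (lowest 2.15e-07). For both loci replicate A was lowest of the 3 on days 7 and 11.

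Within the first step, loc16087 showed the largest called fall. Its level was 57.4, 51.7 and 32.7 CPM on day 4 and 6.24, 5.37 and 3.72 CPM on day 5, a log2 change of -3.21 ± 0.29 (adjusted p = 0.000595). Controls held 568 to 907 CPM, so this locus was already far below every control on day 4. It went on to 0.437, 0.608 and 0.233 CPM on day 7 and showed no further fall on day 11 (0.745, 0.859 and 0.239 CPM; adjusted p = 0.843 for the last step). The largest rise of that step was in loc21189, from 13.9, 19.2 and 13.6 CPM to 33.2, 43.8 and 23.1 CPM (log2 1.10 ± 0.22, adjusted p = 0.0343). Controls held 4.57 to 15.8 CPM, and day 4 straddled the top of that range. Its call ended without any 1 day 4 library, without day 5 replicate A or B and without day 7 replicate B or C (adjusted p from 0.0534 to 0.168), and with voom (0.0739), in a range from 6.07e-05 to 0.460 over all alternatives. That of loc16087 ended without replicate B on all days (adjusted p = 0.164) and in the fit of all 32 libraries (0.149), and its lowest adjusted p over the alternatives was 6.13e-26.

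Of the middle step, loc09583 was the largest fall. From 54.7, 53.2 and 39.5 CPM on day 4 and 27.3, 21.3 and 13.4 CPM on day 5, it went to 3, 0 and 2 counts on day 7 and 4, 2 and 1 counts on day 11. The log2 change from day 5 to 7 was -8.39 ± 0.45 (adjusted p = 4.06e-07). Day 4 exceeded day 7 by 855-fold (counting interval, 366 to 2633), whereas controls held 40.1 to 70.5 CPM throughout. On day 4 replicates A and B lay inside that range and C just under it. The largest rise, in loc06483, followed a low on day 5. It held 14.0, 11.0 and 17.6 CPM on day 4, 4.19, 3.15 and 11.2 on day 5, 28.4, 31.9 and 18.2 on day 7 and 8.11, 16.5 and 19.6 on day 11. The rise from day 5 to 7 was 2.07 ± 0.48 (adjusted p = 0.0379), the step before was not called (-1.19 ± 0.48, adjusted p = 0.479), and day 11 did not differ from day 4 beyond its error (0.04 ± 0.46). The call ended without any 1 library of days 4, 5 or 7 other than day 5 replicate C, and without day 11 replicate B (adjusted p from 0.0532 to 0.151), and with no filter on low counts (0.0911), in a range from 0.00252 to 0.358 over all alternatives.

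For the last step, loc12361 rose from 5.90, 4.42 and 5.44 CPM on day 7 to 51.1, 25.5 and 20.7 CPM on day 11 (log2 2.62 ± 0.41, adjusted p = 0.0323). Controls held 23.6 to 126 CPM and rose with day as well (0.23 ± 0.04 log2 per day, adjusted p = 0.00325). Treated libraries of days 4 to 7 were all below the control range, and on day 11 replicates A and B were inside it. The difference between both slopes was 0.08 ± 0.09 (adjusted p = 0.654). Its call ended without any 1 day 7 library, day 4 replicate C, day 5 replicate C or day 11 replicate B (adjusted p from 0.0544 to 0.166), and with no filter on low counts (0.0801), in a range from 1.61e-10 to 0.525 over all alternatives. The largest fall of this step, loc19950, came at the end of a decline through 22.1, 26.0 and 22.2 CPM on day 4 and 14.3, 14.7 and 11.5 CPM on day 5. It had 10, 8 and 9 counts on day 7 and 3, 1 and 1 counts on day 11, a log2 change of -2.33 ± 0.40 (adjusted p = 0.0321) between values that are both near the limit of detection. This call ended without any 1 library of days 7 or 11 (adjusted p from 0.0522 to 0.188) and with voom (0.0849), in a range from 0.0272 to 1 over all alternatives, while the steps before it were called with adjusted p of 0.00801 and 8.38e-09.

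**Figure D5:**
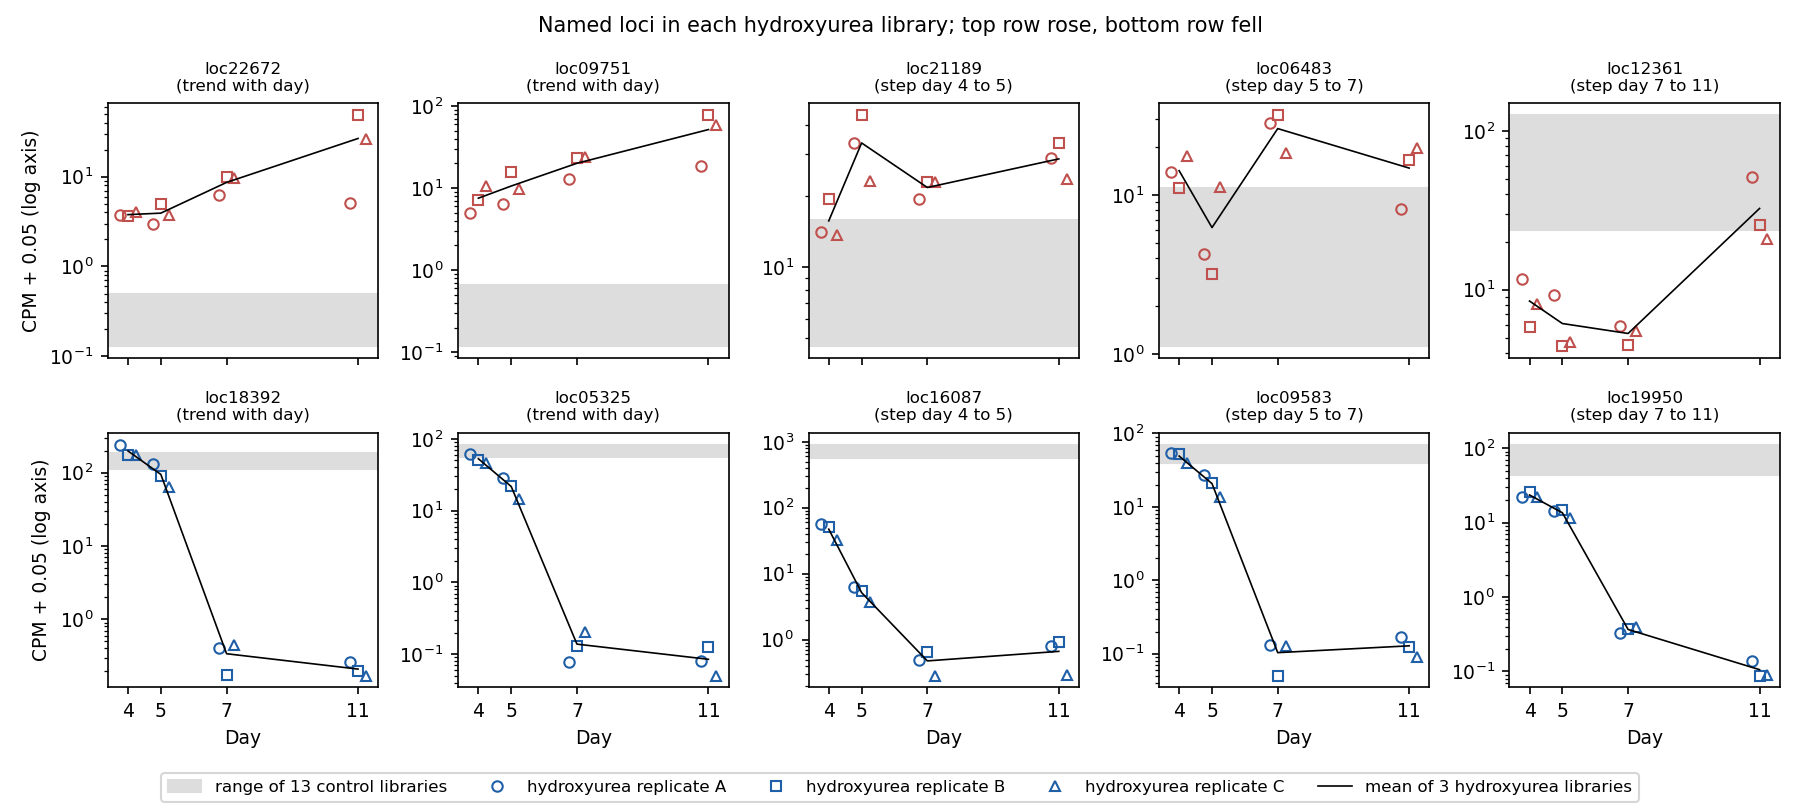
Level of the 10 named loci in each hydroxyurea library (CPM + 0.05 on a log axis, symbols for replicates A, B and C, line for the mean of 3) by day, with the range of the 13 control libraries of all days in grey. The upper row holds loci that rose and the lower row loci that fell in the comparison named above each panel. The 5 falling loci reached under 1 CPM by day 7, and loc22672 and loc09751 lay above the control range on every day.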

How the data were processed

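The authors trimmed reads with cutadapt 1.11 and used Salmon 0.7.2 and DESeq2, per the submitters' processing notes. Libraries were directional TruSeq, per the labels' protocols. The deposited table holds whole-number counts for 79774 sequences, and whether these are Salmon estimates rounded to whole numbers is not given in the sources used here. All 17 values of 7 digits are rounded to 6 significant digits. Reads shared by sequences of different loci may have been split between them. A deposited normalized table was not used.

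Counts of sequences with the same locus number were summed, since 13827 of 25879 loci hold several sequences. The 12 hydroxyurea libraries were fitted with edgeR 4.0.16 in R 4.3.3: TMM scaling (factors 0.914 to 1.11), filterByExpr with a minimum count of 10, robust quasi-likelihood F-tests, Benjamini-Hochberg adjustment over all loci tested and calls at 0.05. Steps used 1 mean per day, which leaves 8 residual degrees of freedom, and the trend used day as a number, which leaves 10. CPM per library use TMM-scaled totals. Levels of sets are medians of log2 CPM with a prior count of 2, and the scaling shared with controls moved levels by at most 4.65%. Library measures were tested with 100000 permutations, two-sided. Counting intervals are exact Poisson-based 95% intervals of pooled counts. Without molecular identifiers, reads need not be independent molecules, so intervals and floors cover counting error only.

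Replicates differed by more than sampling noise (chi-square per degree of freedom of at least 18.4). Named loci follow 1 rule: for the trend, the 2 that rose and 2 that fell with the steepest slope among called loci with at least 5 CPM on average, day means in strict order and no overlap of days 4 and 11. For each step the rule takes the 1 locus that rose and the 1 that fell most, with the same minimum and no overlap. The comparisons, lists and rule were chosen with earlier results of these data known. Alternatives were median-of-ratios scaling, DESeq2 1.42.0, voom (limma 3.58.1), no filter, single sequences, a replicate block, all 32 libraries in 1 fit, other scales of day, left-out libraries and, chosen after seeing the data, leaving out loc01654. The fits were also run on simulated counts, drawn independently for each library with no effect of replicate letter. No statement here rests on that run. No sequences are shown, since none of the tables used here links the loci to them.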

Additional observations from a re-analysis of the deposited data

Results flagged for a closer look

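The trend with day differed between hydroxyurea and control animals, by the test of the interaction, in 1381 of 16876 loci. Of these, 949 had the lower and 432 the higher slope under hydroxyurea. Among the 10 named loci the difference of slopes, hydroxyurea minus control, passed in 7. It was 0.45 ± 0.14 log2 per day (SE) for loc22672 (adjusted p = 0.0429, edgeR quasi-likelihood) and 0.58 ± 0.13 for loc09751 (adjusted p = 0.00539), both with levels under 1 CPM in controls. The slope in controls alone was -0.18 ± 0.08 for loc09751 and was not fitted for loc22672, which did not pass the filter on low counts there. For the loci that fell it was -2.39 ± 0.22 for loc18392, -2.30 ± 0.15 for loc05325, -1.11 ± 0.17 for loc16087, -2.15 ± 0.17 for loc09583 and -1.72 ± 0.13 for loc19950, the largest adjusted p of the 5 being 8.83e-05. The slopes in controls of these 5 were between -0.04 and 0.00 and none was called. The named loci were picked for their change under hydroxyurea, so these differences describe them. The other 3, loc21189, loc06483 and loc12361, did not pass (adjusted p = 0.895, 0.351 and 0.654). No outlier test is reported for groups of 3 libraries.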

How the results depend on the processing

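In all 24 settings that fitted the 3 steps, that from day 5 to 7 had the most calls. The step from day 4 to 5 exceeded that from day 7 to 11 in 23 of 24, the exception being all 32 libraries fitted together, with 1 and 7 calls. For the named loci, 166 alternatives kept direction and call, 50 kept the direction and ended the call, and 0 turned the direction. Counts outside 1.5 times the reported one were as follows. With DESeq2 the steps gave 368, 1312 and 282 loci in order and the departure from a straight line 827. With voom the last step gave 158. Single sequences gave 11 for the first step, 4 for the last, 214 for the departure and 1162 for the trend in controls. The fit of all 32 libraries gave 1, 408 and 7 for the steps, 1433 for day 11 against day 4 and 67 for the departure. With the replicate letter as a block, the steps gave 313, 1683 and 174 and the departure 656. The labels do not say that letters pair libraries across days. Of 18 same-letter pairs, 10 had deviations correlated above 0.1 (r from -0.09 to 0.40). Of 36 different-letter pairs across days, 4 did (r from -0.32 to 0.15). All 12 libraries correlated best with their own letter, a hint from the data and not the design. Leaving out 1 library or 1 letter gave 744 to 2169 loci for the trend, 4 to 220, 178 to 892 and 0 to 49 for the steps, 733 to 2114 for day 11 against day 4, 34 to 371 for the departure, 273 to 1128 for the trend in controls and 669 to 1790 for the difference of trends. The 0 came from edgeR without replicate B, where 719 loci had an unadjusted p under 0.05, and no other tool was run on that subset. The share reached by lower loci was 25.0% to 26.7% on day 5 and 80.1% to 85.0% on day 7, and by higher loci 19.8% to 31.3% and 62.0% to 69.2%. The share of same slopes was 98.8% with replicate B and 94.3% with C held out in place of 91.1% with A. Other alternatives, median-of-ratios scaling, no filter and loc01654 left out among them, stayed within 1.5 times. Fits with libraries left out had fewer libraries per day. The number tested for the steps also changed, from 15981 to 33558 with single sequences, 17107 with all 32 libraries and 15652 without replicate A. What moved the counts was not tested. Depth limits the loci near 0 on days 7 and 11, where a fall below 3 counts cannot be followed.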

Other observations

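The split between falls and rises changed with the abundance of a locus. CPM are not corrected for length, and a fixed change is easier to detect at a higher count. Among 3017 loci under 1 CPM on average over the 12 libraries, 131 fell (4.34%) and 38 rose (1.26%) with day. Among 5160 loci from 1 to 10 CPM, 485 fell (9.40%) and 195 rose (3.78%), and among 6368 loci from 10 to 100 CPM, 692 fell (10.9%) and 364 rose (5.72%). Above 100 CPM the order turned, with 97 of 1436 loci falling (6.75%) and 131 rising (9.12%). A fall lowers and a rise raises the mean by which a locus was classed. How far this shaped the split was not tested. Of the 236 loci lower by 10-fold or more, 67 averaged under 1 CPM, 119 from 1 to 10, 47 from 10 to 100 and 3 above 100.

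The most abundant locus, loc01654, took 1.69%, 11.0% and 2.37% of the counts of day 5 replicates A, B and C, 1.42%, 8.90% and 7.76% on day 7 and 0.601%, 0.603% and 5.04% on day 11. Replicate A held the lowest share on all 4 days. Leaving it out before library sizes were taken gave 2103 loci for the trend in place of 2133, with 819 rising and 1284 falling.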
